A study of Rattus norvegicus with 15 samples.

Results

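Mitochondrial ribosomal protein genes were measured in testes of irradiated and control LBNF1 rats, a hybrid laboratory strain. They were taken as every probe set whose single gene symbol in the array's annotation begins with Mrpl or Mrps followed by a digit. This gave 97 of 31042 non-control probe sets, for 73 of 14217 named genes. Of these, 88 probe sets of 72 genes were bright enough to be tested: their log2 signal reached the median of its own array in at least 5 of the 15 arrays. Each gene was represented by its tested probe set with the highest mean over all arrays.

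Nuclear genes encode all these proteins, which are made in the cytosol, imported and built with ribosomal RNA from mitochondrial DNA into a small subunit, where the message is decoded, and a large subunit, where peptide bonds form. The finished ribosome translates the few messages of the mitochondrial genome, which code for subunits of the respiratory chain and ATP synthase. In human and pig ribosome structures, many of these proteins have a counterpart in bacterial ribosomes and the others are specific to mitochondria. Testicular cells differ in their mitochondria: germ cells reshape theirs during meiosis and sperm formation, and Leydig cells begin steroid synthesis in them.

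The irradiated group held 5 arrays of testes taken after irradiation, and the control group 10 arrays of testes taken before it. Rats of both groups were 25 to 27 weeks old. The dose was 6 Gy to the lower abdomen, in a treatment text that is the same for every sample, and the sources used here do not give how long after it the testes were taken. The labels call the samples biological replicates and do not state that 1 rat gave 1 array, so p-values cover the spread between these arrays, which may be technical.

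The groups differed widely, with 85.5% of 10841 genes past the threshold of 0.05 on limma's p after Benjamini-Hochberg adjustment, 47.6% higher and 37.9% lower in irradiated testes. Array medians lay between -1.38 and -1.26 in irradiated and between -1.61 and -1.37 in control arrays. Markers of spermatids were lower in irradiated testes in 14 of 14 tested genes, and their summed signal, back-transformed from log2, lay between 2.21 and 5.05 in irradiated and between 457 and 684 in control arrays. Spermatocyte markers were lower in 8 of 8 (sums 1.24 to 1.46 in irradiated, 88.3 to 130 in control arrays), and 7 of these 8 and 8 of the 14 spermatid markers, Sycp3 and Tnp2 among them, were below their array's median throughout the irradiated group. Sertoli cell markers were higher in 12 of 13 (sums 156 to 221 in irradiated, 41.9 to 56.8 in control arrays) and Leydig cell markers in 11 of 11 (98.6 to 122 in irradiated, 8.23 to 12.3 in control arrays). Peritubular markers were higher in 9 of 10 (sums 35.7 to 45.2 in irradiated, 10.3 to 13.5 in control arrays), with 3 below the median in every control array. Macrophage markers were higher in 12 and lower in 2 of 14 (sums 30.1 to 34.7 in irradiated, 13.4 to 18.0 in control arrays), with 4 below the median in every control array and 1 in every irradiated array. Markers below the median throughout 1 group entered the test only through the other group, so the filter set their direction. In whole testes, fewer cells of a type and less RNA per cell cannot be told apart. The part of these shifts in the changes of mitochondrial ribosomal protein genes was not tested.

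Mitochondrial ribosomal protein genes did not move as a block. Of the 72 genes, 31 were higher, 29 were lower and 12 did not pass the test in irradiated testes. That is 60 of 72 (83.3%), near the 85.5% of all genes, so the share called says nothing about the group. Counted by probe set, 38 of 88 were higher and 36 lower (84.1%), against 83.4% of all 18711 probe sets tested, 49% higher and 34.3% lower. Changes, given throughout in log2 units as irradiated minus control, ran from -2.66 for Mrpl58 to 2.34 for Mrpl16, with a median of 0.06, against 0.20 for all genes. The middle of the distribution was narrower than for all genes, with quartiles of -0.60 and 0.55 against -0.88 and 1.32. A change of at least 2-fold was measured for 21 of the 72 genes (29.2%), 9 higher and 12 lower, against 54.7% of all genes. In 41 of the 72 genes (56.9%) the irradiated arrays all lay on one side of all control arrays, above in 20 and below in 21, against 69.5% of all genes, above in 40.5% and below in 29%. These all-gene values were not limited to genes as bright as the group, whose median lay above that of all genes in every array. Sizes depended on the scale, as checked with a pseudocount of 1 added to the back-transformed signal for the 40 changes named by a set rule. Of the 36 that passed, 24 shrank by over 1.5 times, 0 turned and 0 lost their call. Genes chosen by their values were not in this check. Mrps5 changed by -1.29 in place of -2.36 and Mrpl16 by 1.05 in place of 2.34, and every fold and bound given here holds for the deposited scale. The split into higher and lower depended on array scaling. It was 20 higher and 37 lower after quantile normalization and 24 and 33 with arrays centred on their medians. With arrays centred on Sertoli cell markers, themselves higher in 12 of 13 genes, it was 2 and 66. The median of all genes tested moved as well, to -0.06, 0.05 and -1.35 in the same order. How many of all genes were higher or lower under these scalings was not counted.

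**Figure D1:**
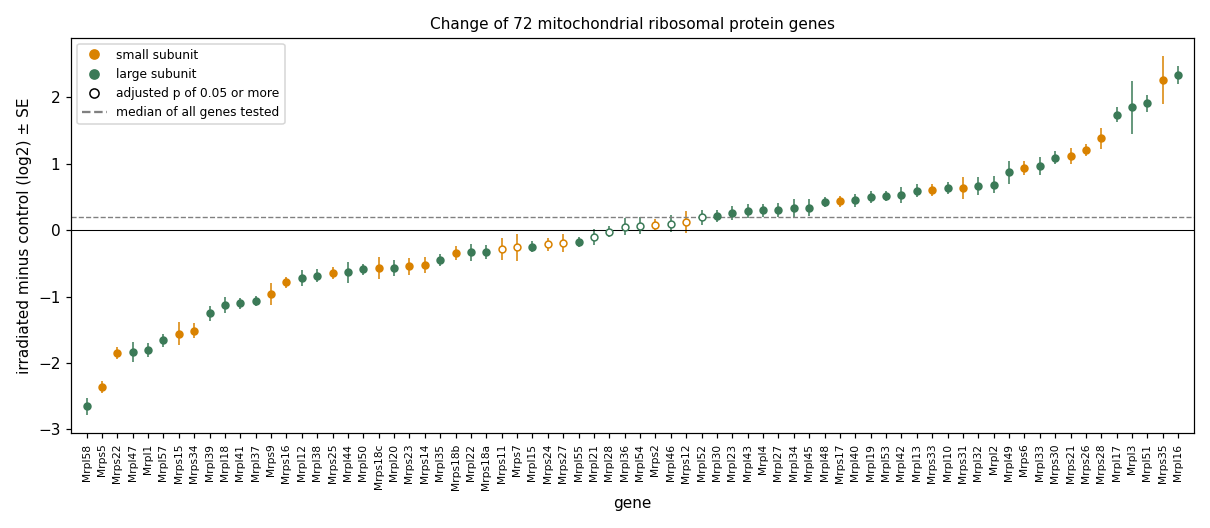
Change of each of the 72 tested genes (irradiated minus control, log2, with limma's standard error), in order of size. Orange marks small and green large subunit genes, open circles mark the 12 genes that did not pass, and the dashed line is the median of all genes at 0.20. The genes spread on both sides of 0, from -2.66 to 2.34, with both subunits at both ends.

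**Figure D2:**
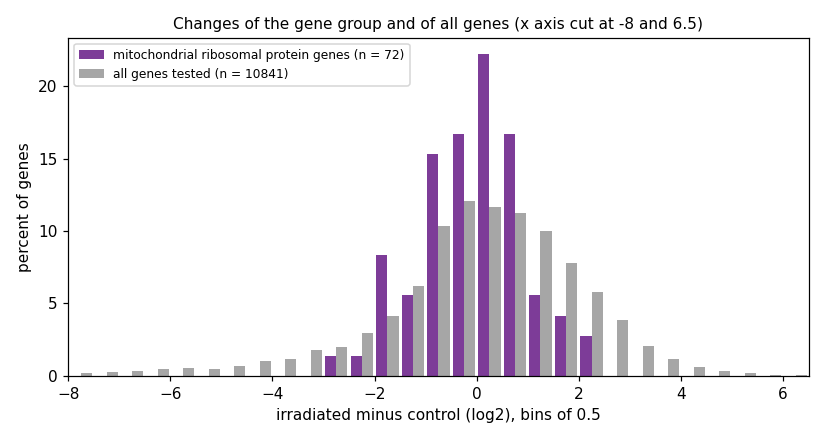
Percent of the 72 mitochondrial ribosomal protein genes (purple) and of all 10841 genes tested (grey) in bins of 0.5 log2 units of change, irradiated minus control. The purple bars lie between -3 and 2.5, while the grey bars reach further out on both sides.

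Both subunits held genes that rose and genes that fell. Of 25 small subunit genes, 8 rose, 11 fell and 6 did not pass, with a median change of -0.26. Of 47 large subunit genes, 23 rose, 18 fell and 6 did not pass, with a median of 0.19. The shares called were 76.0% and 87.2%, against 85.5% of all genes (47.6% higher, 37.9% lower, median 0.20). Mrps30 and Mrps18a are counted with the large subunit, where human structures place their proteins despite their names. Genes with a bacterial counterpart rose in 18 and fell in 15 of 41 (median 0.05), and mitochondria-specific genes rose in 13 and fell in 13 of 30 (median 0.08). These are descriptions, and no difference between the classes was tested.

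Among the 8 genes with the largest falls, 4 belong to each subunit. Mrpl58 (probe set 1374443_at), a peptidyl-tRNA hydrolase of the large subunit that in human cells frees stalled mitochondrial ribosomes, had log2 signals of 0.01, -0.24, -0.61, -0.19 and -0.21 in irradiated replicates 1 to 5. In the 10 control arrays its lowest value was 2.10, its median 2.36 and its highest 2.80. The groups were far apart, and the signal was 6.30-fold lower in irradiated testes (change -2.66 ± 0.13, SE; limma adjusted p = 6e-12). Mrps5 (1388877_at), the counterpart of bacterial S5, which acts in accurate decoding, had signals of -1.02, -0.90, -1.02, -0.89 and -0.64 in irradiated arrays. Its control arrays lay between 1.25 and 1.67 around a median of 1.47. No array of one group came near the other, and the fall was 5.14-fold (-2.36 ± 0.08, SE; limma adjusted p = 9.89e-14).

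The small subunit protein Mrps22 (1399131_at), mitochondria-specific and mutated in a human mitochondrial disease, had irradiated signals of -0.40, -0.23, -0.59, -0.59 and -0.51. Its control arrays ran from 1.15 through a median of 1.42 to 1.50, so that the groups did not overlap, and the change was -1.85 ± 0.09 (SE; limma adjusted p = 3.31e-12). Mrpl47 (1382144_at), counterpart of bacterial L29 near the exit of the peptide tunnel, had irradiated signals of -0.27, -0.49, -1.02, -0.96 and -0.89, with replicates 1 and 2 above the other three. Its control arrays lay between 0.74 and 1.68, and the change was -1.83 ± 0.15 (SE; limma adjusted p = 8.73e-09). Mrpl1 (1389125_at), counterpart of the bacterial L1 protein of the stalk beside the tRNA exit site, measured 0.48, 0.36, 0.34, 0.32 and 0.81 in irradiated arrays. Its control arrays lay between 1.99 and 2.55, with a median of 2.28, and the change was -1.81 ± 0.11 (SE; limma adjusted p = 7.64e-11). In all these genes the lowest control array lay above the highest irradiated array.

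The other 3 of the 8 were Mrpl57, Mrps15 and Mrps34. Mrpl57 (1372948_at), mitochondria-specific, had 0.43 ± 0.13 in irradiated (SD, n = 5) and 2.09 ± 0.17 in control arrays (SD, n = 10), a change of -1.66 (limma adjusted p = 5.15e-11). Its other probe set (1375718_at) fell by 0.34. Mrps15 (1372697_at), counterpart of a protein that in bacteria binds the ribosomal RNA early in assembly, had 0.27 ± 0.20 in irradiated (SD, n = 5) and 1.83 ± 0.38 in control arrays (SD, n = 10), a change of -1.56 (limma adjusted p = 3.04e-07). Mrps34 (1371608_at), which in mice stabilises the small subunit, had 0.06 ± 0.28 in irradiated (SD, n = 5) and 1.58 ± 0.15 in control arrays (SD, n = 10), a change of -1.51 (limma adjusted p = 1.87e-09).

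**Figure D3:**
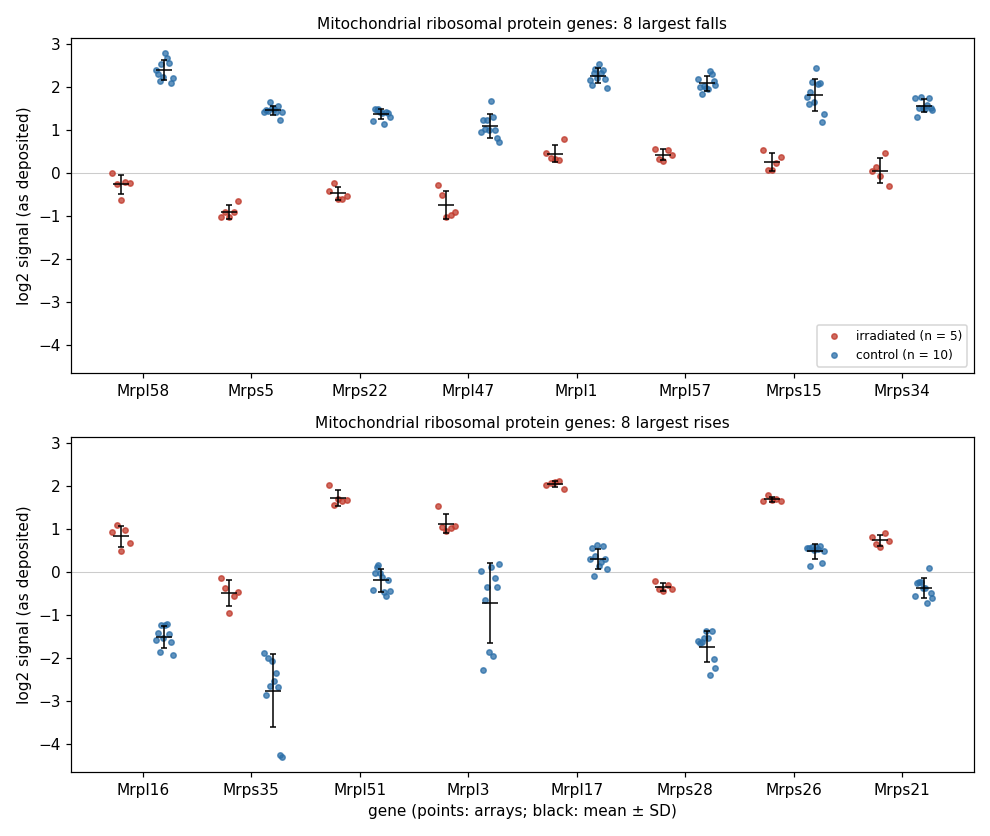
Log2 signals of the 8 genes with the largest falls (top) and the 8 with the largest rises (bottom), with irradiated arrays in red left of control arrays in blue. Points are arrays and black marks are means ± SD (n = 5 irradiated, n = 10 control). In each of these 16 genes the 5 irradiated arrays lie apart from all 10 control arrays, and the control arrays of Mrpl3 and Mrps35 are widely spread.

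The 8 genes with the largest measured rises include Mrps35, whose place rests on control signals below the array median and whose bound lies under the change of Mrps30. Mrpl16 (1371967_at), counterpart of bacterial L16, had log2 signals of 0.94, 1.10, 0.50, 1.00 and 0.68 in irradiated arrays. Its control arrays ran between -1.93 and -1.19 with a median of -1.48, and 4 of them lay below their array's median. The groups did not overlap, and with those arrays set at their medians the rise was at least 2.22 (measured 2.34 ± 0.14, SE; limma adjusted p = 6.26e-11). Mrps35 (1372839_at), a mitochondria-specific small subunit protein, had irradiated signals of -0.12, -0.37, -0.94, -0.55 and -0.45. All its control arrays lay below the array median, from -4.28 to -1.88, so only a bound holds: it was at least 1.97-fold higher in irradiated testes. It entered the test only through its irradiated arrays and so had to differ, and its p is not given; without it, 30 of 71 genes were higher and 29 lower.

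Mrpl17 (1369013_a_at), counterpart of bacterial L17 at the tunnel exit, gave some of the closest replicates, with 2.04, 2.08, 2.09, 2.13 and 1.95 in irradiated arrays. Control arrays lay between -0.08 and 0.63 with a median of 0.31, and the rise was 3.34-fold (1.74 ± 0.11, SE; limma adjusted p = 2.87e-10). Mrpl3 (1371709_at), counterpart of the L3 protein next to the peptidyl transferase centre, had irradiated signals of 1.54, 1.06, 0.97, 1.04 and 1.08. Its control arrays spread from -2.27 to 0.20. Replicates 2, 5 and 7, each below its array's median, were at -2.27, -1.84 and -1.94 and the other 7 between -0.65 and 0.20. The lowest irradiated array still lay above the highest control array, and the change was 1.85 ± 0.39 (SE; limma adjusted p = 0.000376). This control SD of 0.94 was the widest among the tested probe sets of the group, where the median SD was 0.17 in irradiated and 0.21 in control arrays.

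The other 4 of the 8 were Mrpl51, described below by probe set, Mrps28, Mrps26 and Mrps21. Mrps28 (1373121_at), placed by structures at the site of bacterial S1, had -0.34 ± 0.09 in irradiated (SD, n = 5) and -1.72 ± 0.36 in control arrays (SD, n = 10). Its measured change was 1.39 (limma adjusted p = 4.39e-07). With the 7 control arrays below their medians set at those medians, the rise of Mrps28 was at least 1.11. Mrps26 (1367526_at), mitochondria-specific, had 1.70 ± 0.06 in irradiated (SD, n = 5) and 0.49 ± 0.17 in control arrays (SD, n = 10), a change of 1.21 (limma adjusted p = 1.63e-09). Mrps21 (1373609_at), counterpart of bacterial S21, had 0.75 ± 0.12 in irradiated (SD, n = 5) and -0.37 ± 0.24 in control arrays (SD, n = 10), a change of 1.11 (limma adjusted p = 1.49e-07). With arrays centred on Sertoli cell markers, Mrps28, Mrps26 and Mrps21 turned to -0.17, -0.34 and -0.44, and Mrpl17 and Mrpl3 no longer passed.

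Outside these 16 genes, 23 rose by 0.22 to 1.09 and 21 had changes between -1.25 and -0.18. Mrps30, mitochondria-specific, was at the upper end with 0.34 ± 0.13 in irradiated (SD, n = 5) and -0.75 ± 0.17 in control arrays (SD, n = 10). Mrpl39, also mitochondria-specific, was at the lower end with -0.24 ± 0.22 in irradiated (SD, n = 5) and 1.01 ± 0.20 in control arrays (SD, n = 10). Both were picked for this place after their values were seen. The 3 genes named for bacterial S18, Mrps18a, Mrps18b and Mrps18c, fell by 0.33, 0.34 and 0.57 (limma adjusted p = 0.0121, 0.00642 and 0.00461), although a second probe set of Mrps18c did not pass (-0.01, limma adjusted p = 0.971). Mrpl12 (1372431_at), whose bacterial counterpart forms the flexible stalk that recruits translation factors, fell by 0.72 ± 0.12 (SE; limma adjusted p = 2.95e-05). Its partner in that stalk, Mrpl10 (1373404_at), rose by 0.64 ± 0.09 (SE; limma adjusted p = 4.71e-06). Mrpl10 had 0.96 ± 0.15 in irradiated (SD, n = 5) and 0.33 ± 0.13 in control arrays (SD, n = 10), and Mrpl12 had 0.36 ± 0.16 and 1.07 ± 0.23. A second probe set of each gene moved the same way, by -0.36 for Mrpl12 (-0.16 with dim arrays at their medians) and 0.62 for Mrpl10. The S18 genes, Mrpl12 and Mrpl10 were likewise chosen with their values known.

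The 6 tested genes with the highest mean signal over all arrays, a choice that does not compare their abundance, were Mrpl41, Mrpl18, Mrpl20, Mrpl43, Mrpl1 and Mrpl37. Of these, 5 fell and 1 rose. As 10 of the 15 arrays in that mean were controls, the choice favoured genes brighter in control testes. The split is therefore partly set by the choice. Mrpl41 (1371423_at) measured 1.09, 1.36, 1.45, 1.22 and 1.29 in irradiated arrays, against 2.24 to 2.56 in control arrays, a change of -1.10. Mrpl18 (1399058_at) and Mrpl37 (1398921_at) fell by 1.13 and 1.06, and Mrpl20 (1371720_at) by 0.57, all with the groups apart. Mrpl43 (1367546_at) rose by 0.29 ± 0.10 (SE; limma adjusted p = 0.0147), but its irradiated arrays, from 1.77 to 2.00, overlapped its control arrays, from 1.27 to 1.91. It no longer passed after quantile normalization, with arrays centred on their medians or with a replicate block, and turned to -1.26 with arrays centred on Sertoli cell markers.

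The 12 genes that did not pass had changes between -0.28 and 0.19. The 4 with the smallest changes were Mrpl28 at -0.02 ± 0.08, Mrpl36 at 0.05 ± 0.12, Mrpl54 at 0.07 ± 0.13 and Mrps2 at 0.08 ± 0.09 (SE; limma adjusted p = 0.809, 0.692, 0.624 and 0.377). Mrpl28 had 0.71, 0.66, 0.56, 0.56 and 0.67 in irradiated arrays, inside the control range of 0.41 to 0.84. Mrpl36, Mrpl54 and Mrps2 had irradiated ranges of 0.66 to 1.29, 0.80 to 1.42 and 0.39 to 0.72, against control ranges of 0.58 to 1.27, 0.83 to 1.54 and 0.31 to 0.71. The groups overlapped in all 4. Missing the threshold does not show that the levels were equal. After quantile normalization, Mrpl28 (-0.37), Mrpl36 (-0.26) and Mrps2 (-0.27) were lower and passed (limma adjusted p = 0.000225, 0.0417 and 0.0072), and all 4 passed as lower with arrays centred on Sertoli cell markers, Mrpl28 at -1.58. Mrpl54 turned to -0.21 after quantile normalization and did not pass. With arrays centred on their medians, Mrpl36, Mrpl54 and Mrps2 turned to -0.10, -0.09 and -0.07. A second probe set of Mrps2 (1382782_at) fell by 0.40. Mrpl14 was the 1 gene with no tested probe set. Its signals lay below the array median in every array, from -3.59 to -1.36 in irradiated and from -5.26 to -4.48 in control arrays, which gives no size of change. Of the 9 probe sets not tested, 8 lay below the median in every array.

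Where several probe sets of a gene were tested, they did not always agree in direction. Among 14 such genes, all probe sets passed in the same direction in 7 and at least 1 did not pass in 5. In the other 2, Mrpl51 and Mrps14, probe sets lay on opposite sides of the control arrays. Mrpl51 is a mitochondria-specific protein of the large subunit with 4 tested probe sets. Its probe set 1390509_a_at had 2.03, 1.56, 1.72, 1.65 and 1.68 in irradiated arrays, against -0.56 to 0.18 in control arrays, a rise of 1.91 ± 0.13 (SE; limma adjusted p = 5.64e-10). Probe sets 1376930_at and 1379874_at rose by 1.93 each, the second by at least 1.54 with dim control arrays at their medians. Probe set 1390188_at had -1.47, -1.36, -1.36, -1.48 and -1.47, each below its array's median, against -0.67 to -0.42 in control arrays, and was at least 1.69-fold lower. It entered the test only through its control arrays, where it is brighter, so its p is not given. No groups of arrays overlapped in any of the 4.

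Mrps14, the counterpart of bacterial S14, fell in the probe set that stands for the gene and rose in the other. Probe set 1383090_at had 1.01, 1.17, 1.21, 1.23 and 0.62 in irradiated arrays, against 1.33 to 2.00 in control arrays, a change of -0.53 ± 0.12 (SE; limma adjusted p = 0.000901). Probe set 1377937_at had 0.67, 0.16, 0.61, 0.39 and 0.51 in irradiated arrays, against -0.96 to -0.46 in control arrays, a change of 1.13. Centring arrays on Sertoli cell markers turned the second to -0.42. Which transcript each probe set detects was not tested. Mrpl40 shows how far probe sets can differ within 1 direction: 1374931_at rose by 0.45, while 1388517_at, below the array median in every control array, was at least 3.47-fold higher. Mrpl40 was singled out after its values were seen.

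**Figure D4:**
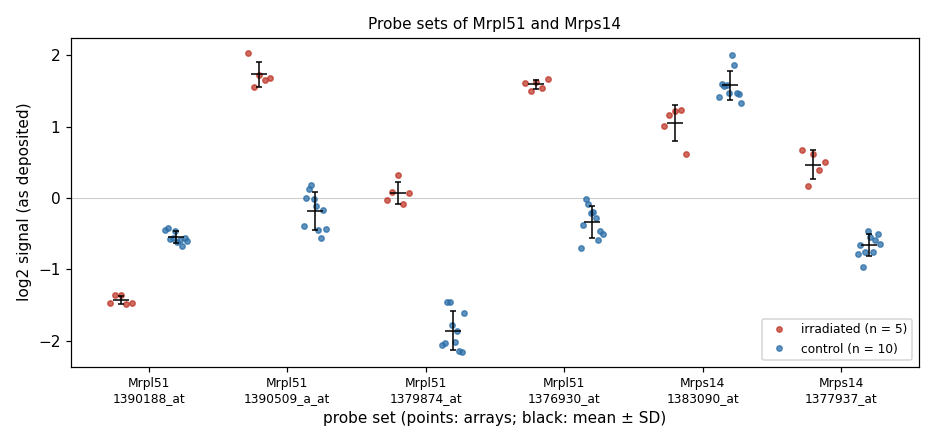
Log2 signals of the 4 tested probe sets of Mrpl51 and the 2 of Mrps14 by array, with irradiated arrays in red left of control arrays in blue. Points are arrays and black marks are means ± SD (n = 5 irradiated, n = 10 control). One probe set of each gene is lower in irradiated arrays and the others are higher.

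Within an array, the median of the 72 genes was 0.64, 0.60, 0.42, 0.62 and 0.61 in irradiated replicates 1 to 5. In control arrays it had a lowest value of 0.59, a median of 0.66 and a highest value of 0.84. The groups overlapped, with irradiated replicate 3 below all other arrays. Relative to the median of all genes tested in the same array, the group stood 0.39 to 0.59 log2 units higher in irradiated arrays and 0.81 to 0.96 higher in control arrays, with no overlap. The median of all genes was itself higher in irradiated arrays, at 0.06 ± 0.05 (SD, n = 5), than in control arrays, at -0.18 ± 0.05 (SD, n = 10). For actin, the signal at the 3' end minus that at the 5' end, which grows as RNA degrades, was 1.02 ± 0.10 in irradiated (SD, n = 5) and 1.02 ± 0.42 in control arrays (SD, n = 10), with control replicates 6, 7 and 8 at 1.89, 1.37 and 1.44. Without these 3 arrays, 31 of the 72 genes were higher and 27 lower.

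**Figure D5:**
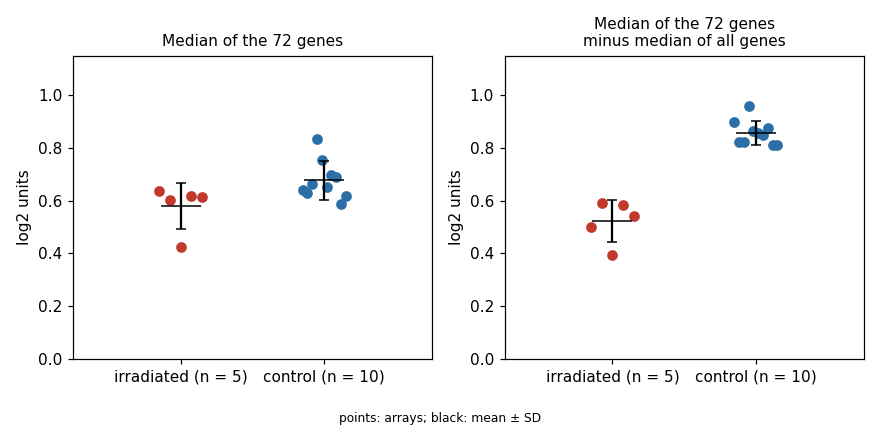
Median log2 signal of the 72 genes in each array (left) and the same minus the median of all genes tested (right), for irradiated (red) and control arrays (blue). Points are arrays and black marks are means ± SD. The left values overlap, while on the right irradiated arrays lie between 0.39 and 0.59 and control arrays between 0.81 and 0.96.

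Promoter sequences, from RefSeq on the assembly GRCr8 and running from 250 bases before to 50 bases from the gene start, were found for 59 of the 73 genes (61 promoters). They were searched on both strands for 5 words. ETS factors such as GABP, known as a regulator of nuclear genes of mitochondria, bind CCGGAAG, and NRF1, another such regulator, binds GCGCANGCG. The other words were AAGATGGCG for YY1, TGACGTCA for CREB factors and GGGCGG for SP1. The ETS word stood in 32.8% of the group's promoters, against 8.75% of all 33469 promoters. These were all promoters of the set, whether their gene was tested on the array or not. Shares among tested genes alone were not counted. The NRF1 word stood in 18.0%, against 5.8%, the YY1 word in 13.1%, against 1.73%, the SP1 word in 49.2%, against 33.1%, and the CREB word in 1.64%, against 1.83%. The group's promoters were also richer in G and C, with a median of 56.0%, against 51.7% in all promoters. ETS and YY1 words overlapped in 0 of the 61 promoters.

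Genes that rose and genes that fell both carried these words. At least 1 of the ETS, NRF1 and YY1 words stood in 17 of 26 promoters of genes that rose and in 10 of 24 of genes that fell. The ETS word stood in 11 of the 26 and 6 of the 24, the NRF1 word in 6 and 4, the YY1 word in 2 and 3. A word in a promoter is a description and not a shown binding site, and no difference between these counts was tested. The promoters of the 3 genes with the largest falls that had one are printed here to show what precedes the genes that moved most, with the words found in capitals. They are Mrpl58 at chr10:101145092-101145391 (plus strand), with 1 ETS word just before the start, Mrps5 at chr3:135274083-135274382 (plus strand), with 2 SP1 words, and Mrpl47 at chr2:117447312-117447611 (minus strand), with none of the 5 words.
Mrpl58: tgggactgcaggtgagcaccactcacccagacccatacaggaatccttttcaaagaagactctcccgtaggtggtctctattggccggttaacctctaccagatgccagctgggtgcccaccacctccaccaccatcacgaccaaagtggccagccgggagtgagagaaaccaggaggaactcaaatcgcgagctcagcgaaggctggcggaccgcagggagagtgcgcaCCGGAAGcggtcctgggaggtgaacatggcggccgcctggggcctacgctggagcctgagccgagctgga
Mrps5: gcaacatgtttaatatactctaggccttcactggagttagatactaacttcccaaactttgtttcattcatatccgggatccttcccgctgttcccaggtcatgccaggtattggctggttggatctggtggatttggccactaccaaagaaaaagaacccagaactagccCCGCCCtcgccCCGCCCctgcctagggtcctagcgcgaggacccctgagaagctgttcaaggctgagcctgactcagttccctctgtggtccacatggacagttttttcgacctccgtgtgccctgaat
Mrpl47: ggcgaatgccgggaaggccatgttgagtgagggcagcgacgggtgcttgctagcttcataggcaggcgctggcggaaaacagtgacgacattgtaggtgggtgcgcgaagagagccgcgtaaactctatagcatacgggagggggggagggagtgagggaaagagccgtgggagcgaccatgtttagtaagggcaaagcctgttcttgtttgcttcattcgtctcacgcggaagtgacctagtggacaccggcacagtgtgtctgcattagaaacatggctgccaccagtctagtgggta

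The promoters of the 3 genes with the largest rises that had one are given in the same way. Mrpl51, at chr4:159677738-159678037 (plus strand), held none of the 5 words. Mrpl3, at chr8:114548720-114549019 (plus strand), held 1 ETS word after the start. Mrpl17, at chr1:169575650-169575949 (minus strand), held the NRF1 word at 2 places, matching on both strands at 1 of them, and 2 SP1 words. The ETS and SP1 words thus stood in promoters of both directions.
Mrpl51: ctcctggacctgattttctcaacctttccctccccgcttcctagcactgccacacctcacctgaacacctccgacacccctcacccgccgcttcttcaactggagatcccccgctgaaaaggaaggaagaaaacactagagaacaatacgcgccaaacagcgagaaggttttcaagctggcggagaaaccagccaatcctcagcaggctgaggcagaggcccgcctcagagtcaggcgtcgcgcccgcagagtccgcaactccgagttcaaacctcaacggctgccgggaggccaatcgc
Mrpl3: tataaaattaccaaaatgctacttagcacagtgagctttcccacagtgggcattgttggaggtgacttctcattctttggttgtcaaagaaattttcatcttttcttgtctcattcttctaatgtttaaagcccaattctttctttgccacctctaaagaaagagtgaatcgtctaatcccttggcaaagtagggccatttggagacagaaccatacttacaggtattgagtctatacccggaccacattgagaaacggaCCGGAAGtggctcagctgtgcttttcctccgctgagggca
Mrpl17: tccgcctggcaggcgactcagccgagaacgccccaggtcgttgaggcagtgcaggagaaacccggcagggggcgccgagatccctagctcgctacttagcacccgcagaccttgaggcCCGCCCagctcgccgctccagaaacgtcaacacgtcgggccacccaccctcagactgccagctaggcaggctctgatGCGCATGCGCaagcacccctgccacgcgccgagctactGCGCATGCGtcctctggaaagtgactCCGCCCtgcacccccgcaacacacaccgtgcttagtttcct

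Some of these genes start near a neighbour transcribed the other way. A divergent neighbour whose start lay within 1000 bases was found for 18 of the 59 genes (30.5%). The share was 11.4% of all 27457 genes with a promoter, whether tested on the array or not. The neighbour was tested on the array for 14 of the 18. In 9 pairs both genes passed the test, and in 8 of these 9 they moved in the same direction. Among all 292 such pairs of genes tested, 165 (56.5%) did, and with 9 pairs the difference was not tested. Pairs were counted on the deposited scale only, and the directions of the group's genes depended on array scaling. Irradiated and control arrays overlapped in Mrpl30, Mrpl40, Mrps18b and Mrps18c, each at the probe set that stands for the gene. Mrpl32 (change 0.66) rose with Psma2 (1.98), a proteasome subunit, 210 bases away, and Mrpl40 (0.45) with Hira (1.72), a histone chaperone, 186 bases away. Mrpl30 (0.22) rose with Mitd1 (1.70), 194 bases away. Mrpl47 (-1.83) fell with Ndufb5 (-0.39), a subunit of respiratory complex I, 244 bases away. Mrpl18 (-1.13) fell with the chaperonin subunit Tcp1 (-1.55), 425 bases away, and Mrpl41 (-1.10) with Pnpla7 (-2.29), 996 bases away. Mrps18b (-0.34) fell with Ppp1r10 (-1.32), 588 bases away, and Mrps18c (-0.57) with the DNA helicase Helq (-0.61), 72 bases away. The exception was Mrpl51, which rose by 1.91 while the condensin subunit Ncapd2, 50 bases away, fell by 1.10. Mrpl46 and Mrps11, whose starts lie 234 bases apart, are members of the group on both sides, and neither passed (0.10 and -0.28).

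A pair that rose and a pair that fell are shown by the promoter of their member, with words in capitals as before. Mrps18c fell in the probe set that stands for the gene, with overlapping groups, and a second probe set did not pass (-0.01). Mrpl32, at chr17:55260401-55260700 (plus strand), held the NRF1 word at 1 place between its start and that of Psma2, and 2 SP1 words. Mrps18c, at chr14:9122857-9123156 (minus strand), held 1 ETS word and 1 SP1 word. Both lay further upstream than the start of Helq, 72 bases away, and so not between the starts.
Mrpl32: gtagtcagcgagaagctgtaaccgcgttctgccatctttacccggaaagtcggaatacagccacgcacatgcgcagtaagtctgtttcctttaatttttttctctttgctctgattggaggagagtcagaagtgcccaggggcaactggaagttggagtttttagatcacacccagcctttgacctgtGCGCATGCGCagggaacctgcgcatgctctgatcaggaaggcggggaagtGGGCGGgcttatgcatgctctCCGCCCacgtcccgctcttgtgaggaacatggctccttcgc
Mrps18c: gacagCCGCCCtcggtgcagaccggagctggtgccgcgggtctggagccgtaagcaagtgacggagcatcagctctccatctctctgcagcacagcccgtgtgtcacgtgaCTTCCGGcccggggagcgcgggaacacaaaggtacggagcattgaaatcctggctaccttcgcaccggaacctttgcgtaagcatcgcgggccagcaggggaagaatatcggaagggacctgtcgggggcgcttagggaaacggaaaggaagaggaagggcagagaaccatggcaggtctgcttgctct

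Other genes of mitochondrial translation were read from lists of known members, to be set against the 47.6% higher, 37.9% lower and 14.5% not called among all genes tested. Of 6 further ribosome components and partners, 5 rose and 1 fell (median 0.76). Chchd1, a small subunit protein, rose by 1.26 ± 0.12 (SE; limma adjusted p = 5.38e-08), with 1.41 ± 0.14 in irradiated (SD, n = 5) and 0.15 ± 0.25 in control arrays (SD, n = 10). Aurkaip1, also of the small subunit, had 0.17 ± 0.24 in irradiated (SD, n = 5) and 1.53 ± 0.28 in control arrays (SD, n = 10), a change of -1.36 (limma adjusted p = 1.53e-07). Of 9 translation factors, 2 rose, 4 fell and 3 did not pass (median -0.11). The elongation factor Gfm1 rose by 0.62, and Mtres1, which in human cells acts on stalled mitochondrial ribosomes, fell by 2.42, or by 2.29 with dim irradiated arrays at their medians.

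Of 14 mitochondrial tRNA charging genes, 4 rose, 5 fell and 5 did not pass (median 0.03). Gatc, Qrsl1 and Gatb encode subunits of 1 enzyme, which makes glutamine-charged tRNA, and did not all move the same way. Gatc rose by 1.34 ± 0.09 and Qrsl1 changed by -2.19 ± 0.10 (SE, limma adjusted p = 7.51e-10 and 3.18e-12). Gatb, added after its values were seen, changed by -0.51 ± 0.14 (SE, limma adjusted p = 0.00274). Of 21 ribosome assembly genes, 9 rose, 8 fell and 4 did not pass (median 0.16). Nsun4, which methylates the small ribosomal RNA, lay below the median in every irradiated array and was at least 9.83-fold lower, and Rbfa, a small subunit assembly factor below the median in every control array, was at least 2.28-fold higher. Rbfa had the largest measured rise, but its bound is smaller than the change of C1qbp, a mitochondrial matrix protein that in mice binds RNA and aids translation, which rose by 2.41 ± 0.12 (SE; limma adjusted p = 6.48e-12) and was added after its values were seen. Of 18 genes of mitochondrial DNA expression, 10 rose, 5 fell and 3 did not pass (median 0.46). Hsd17b10, a subunit of mitochondrial RNase P below the median in every control array, was at least 9.80-fold higher. Mterf2, a member of the transcription termination factor family, fell by 1.89, or by 1.74 with dim irradiated arrays at their medians. Called genes below the median throughout 1 group entered the test only through the other, so the filter set their direction. In these lists they were Hsd17b10, Pnpt1 and Rbfa among the rises and Top1mt, Nsun4, Ybey and Aars2 among the falls. With arrays centred on Sertoli cell markers, Chchd1, Gfm1 and Gatc turned to -0.29, -0.94 and -0.22.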

How the data were processed

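Signals came from Affymetrix 3' expression arrays, 1 per sample, labelled from 10 µg of total RNA per the labels. The submitters' processing notes name MAS5 and give no version. The deposited table holds log2 values; the base was read from the spike-ins, which rose by 0.879 log2 units per doubling in irradiated and 0.861 in control arrays, and the sources used here give neither the scaling nor the zero point. The 57 control probe sets were left out, 0 array columns were unused, and 0 pairs of arrays were identical. Gene symbols are those of GEO's platform annotation, dated 2016. Of the 31042 other probe sets, 20826 had 1 symbol, 436 several and 9780 none in the table used. All 73 symbols were found in RefSeq's GRCr8 gene table by gene identifier, with 0 changed.

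The comparison was fitted in R 4.3.3 by limma 3.58.1, with lmFit and eBayes, two-sided and with no covariate, over all 18711 probe sets tested, with Benjamini-Hochberg adjustment and a threshold of 0.05. Where all arrays of a group lay below their own medians, a probe set has only a bound there: the brighter group's mean was set against the dim group's mean with each array at no less than its median ("at least N-fold"), and likewise where only some arrays were below and the group mean was too. Named genes are the 8 largest rises and falls, the 4 smallest changes, genes with opposite probe sets, the 6 highest means and, for each other list, the largest rise and fall, ranked by measured change even where only a bound holds. Others are said to be chosen by their values. Members and lists were chosen with earlier results of these data known. Replicate numbers 1 to 5 occur in both groups, but deviations of arrays with the same number correlated between -0.047 and 0.069, so they were not treated as pairs. The number of arrays limits the precision.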

Additional observations from a re-analysis of the deposited data

Results flagged for a closer look

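In 9 of the 176 groups of arrays checked over the 88 probe sets (5.11%), the gap between the highest or lowest array and its nearest neighbour, as a share of the group's range, was above Dixon's critical value. By that criterion chance flags about 1 in 20 groups if they are independent, but the same arrays recur in every probe set. Irradiated replicate 3 was the lowest of its group in Mrps16 (0.40), Mrps7 (-0.75) and Mrpl2 (-0.78), and irradiated replicate 2 in Mrps2 (0.39). Irradiated replicate 1 was the highest in Mrpl15 (1.60) and Mrpl3 (1.54). In control arrays, replicate 9 was the lowest in Mrpl10 (-1.98, probe set 1395526_at), replicate 1 the lowest in Mrpl49 (-1.56), and replicate 4 the highest in Mrps31 (-0.37).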

How the results depend on the processing

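In 28 alternatives, the number of the 72 genes called stayed between 53 (replicate block) and 68 (arrays centred on the Sertoli list). Array scaling moved the directions most. Quantile normalization gave 20 higher genes and a median of -0.27 (all genes -0.06). It turned Mrpl36 (-0.26) and Mrps2 (-0.27), which then passed, and Mrpl54 (-0.21), which did not. It also brought Mrpl28 (-0.37) past the threshold. Centring arrays on their medians gave a median of -0.10 (all genes 0.05) and turned 3 of the uncalled changes without a call. Centring on 13 Sertoli cell genes gave 2 higher and 66 lower genes, 5 higher and 79 lower probe sets and a median of -1.50 (all genes -1.35), brought Mrpl28 (-1.58) past the threshold, and turned Mrpl36 (-1.50), Mrpl54 (-1.49), Mrps2 (-1.47), Mrpl43 (-1.26), Mrps21 (-0.44), Mrps14 (1377937_at, -0.42), Mrps26 (-0.34), Mrps28 (-0.17), Chchd1 (-0.29), Gfm1 (-0.94) and Gatc (-0.22). The median was -0.0352 with control replicates 6 to 10 only and -0.10 when probe sets had to reach the 75th percentile, which tests fewer genes and left 5 calls among tRNA charging, 11 among assembly and 8 among mitochondrial DNA expression genes. A pseudocount of 1 by construction shrinks changes of low signals. Among the 40 single changes named by rule, it shrank 24 of the 36 called by over 1.5 times, with 0 calls lost. The median of the 72 genes was then 0.04. The cause of the other shifts was not tested. Under the replicate block Mrpl43 did not pass (0.25, adjusted p = 0.0739), and no other of the 40 single changes lost its call. Leaving out 1 array at a time gave 68 to 74 probe sets called and no lost call among these 40. The number of arrays and signals near the array median limit small changes.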
